A study of Manihot esculenta with 44 samples.

Results

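MYB domain transcription factors were followed in leaves of cassava (Manihot esculenta) as the 158 genes, of 34120 in the deposited tables, whose description holds the words myb domain protein in any letter case. The rule reads that description and no measured value. The members are given 71 different names, such as MYB44 or MYB73, drawn from the description of the best match in Arabidopsis. For that count the description name MYBR1 was written as MYB44. MANES_05G205700, described as MYB103, was written as MYB80 after the symbol of its best match. Such a name does not separate close copies, so each copy is given with its cassava ID, and how reads shared by close copies were assigned is not given in the sources used here. The deposited annotation listed a MYB domain of the Pfam collection for 148 of the members and for 314 genes in all, so genes with that domain but another description lie outside the 158.

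MYB proteins bind DNA through repeats of a helical fold, and most plant members carry a pair of such repeats. Plants use the family to switch on or hold back the phenylpropanoid pathway, which makes flavonoids and lignin, and to control wax and cutin in the epidermis, secondary walls, hair and guard cell identity, and responses to drought, cold, wounding and abscisic acid. The roles given below come from Arabidopsis and are background, not results of these libraries.

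The plants were KU50, a variety popular in Southeast Asia, planted as lignified cuttings at both sites, Hanoi and the province of Bac Kan in Vietnam, in 2019 with similar fertilizer. The Hanoi site was a general field without flowering, and the Bac Kan site was mountainous and had flowering plants. Hanoi leaves were sampled on 24 May, 13 July and 7 August, and once more, after a longer gap, on 10 October. Bac Kan leaves were sampled on 31 May, 29 June and 26 July, then on 15 August and 11 September, and finally on 5 and 30 October. Each of the 11 groups held 4 libraries, 16 from Hanoi and 28 from Bac Kan, all of the same variety, with no other treatment named. Whether libraries of 1 group are separate plants is not stated in the labels, so the p-values measure the spread between these libraries, which may be technical. Each group was sampled on a single date, so within a pair the site cannot be told apart from the field, the sampling day or flowering. The p-values hold no spread between sampling days. In whole leaves fewer cells of a type and less RNA per cell cannot be told apart. Sites and dates are those of the sample titles, and the characteristics of 40 of the 44 samples gave another date and those of 16 another site.

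The level of a gene below is its FPKM (fragments per kilobase of transcript scaled to the size of the library, deposited by the authors), summed over its transcripts and rescaled so that each library totals 1000000. It is a value per transcript length, so levels of different genes may be set side by side. Each Hanoi date was compared with a Bac Kan date close to it, as Bac Kan minus Hanoi, with gaps of 7 days for the late May pair, 13 for July, 8 for August and 5 for October. Differences are on the log2(level + 1) scale, which understates the change of low genes, and are given ± SE. Levels are given as mean ± SD of 4 libraries, and libraries are numbered in the order of their columns. A gene was called at an adjusted p under 0.05 in 1 limma fit over all 23405 genes tested, with Benjamini-Hochberg adjustment.

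The relative depth of the libraries, read from the spacing of low values in 9886 genes, ran from 0.700 to 1.478. It did not overlap between the October groups, at 1.231 to 1.478 in Hanoi on 10 October and 0.752 to 0.890 in Bac Kan on 5 October, and its part in the October results was not tested. None of the 7 leaf mesophyll marker genes was at 0 in all libraries, and their summed level ran from 8000 to 29400. That sum did not overlap between sites in July, at 18500 to 29400 in Hanoi and 14100 to 17200 in Bac Kan, or in October, at 15400 to 18900 and 8310 to 12600. Summed levels of 21 genes of dividing cells and of 21 genes of floral organs overlapped between the sites in all 4 pairs. The 59 genes of the secondary wall and xylem summed to 56.1 to 69.0 in Hanoi and 26.9 to 37.2 in Bac Kan in late May, and to 63.0 to 81.2 and 43.2 to 57.4 in August, without overlap. In July that sum ran the other way, from 53.1 to 78.7 in Hanoi and from 78.7 to 97.8 in Bac Kan, and in October the groups overlapped. The highest gene of that list was PARVUS MANES_05G164000, at 4.16 to 47.8 over all libraries. No copy of the cellulose synthases CESA4, CESA7 and CESA8 passed 2.47, so the sum says little of xylem itself. The 12 genes of the stomatal lineage summed to 30.4 to 65.6 in Hanoi and 18.3 to 29.4 in Bac Kan in late May, and in the opposite order to 13.0 to 23.7 and 28.8 to 42.5 in August, without overlap in either pair. At 0 in all libraries were 12 of the 59 xylem genes, 5 of the 21 floral organ genes and 6 of the 12 stomatal genes. Some sums also lay apart between first and last dates. In Bac Kan floral organ genes summed to 24.9 to 50.8 on 31 May and 82.3 to 151 on 30 October. Mesophyll genes there summed to 11600 to 14300 and 8370 to 9860. In Hanoi mesophyll genes summed to 8000 to 12900 on 24 May and 15400 to 18900 on 10 October. Stomatal genes there summed to 30.4 to 65.6 and 17.0 to 22.6, and xylem genes to 56.1 to 69.0 and 39.7 to 49.6. The part of any of these cell types in the results below was not tested.

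Of the 158 members, 75 reached a level of 1 in at least 4 libraries and were tested, 50 were listed at 0 in all 44 libraries, and 33 were above 0 in at most 11 libraries and never above 6.26. A member could pass this filter through 1 group alone, so the counts below describe the 75 tested and not the family. Among the 75, 22 had a mean of 10 or more over the groups and 20 a mean under 1. The 5 highest were MYB73 MANES_13G118400 at 301, MYB73 MANES_12G108500 at 187, MYB96 MANES_06G092600 at 59.4, MYB44 MANES_18G042000 at 52.2 and MYB5 MANES_15G108200 at 38.8. The summed level of all members was 2170 ± 416 in Hanoi on 24 May, of which both leading MYB73 genes made up 1420, against means of 627 to 1290 in the other 10 groups. The highest group mean fell in Hanoi for 37 of the tested members, 15 of them on 24 May, and in Bac Kan for 38, 14 of them on 30 October.

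**Figure D1:**
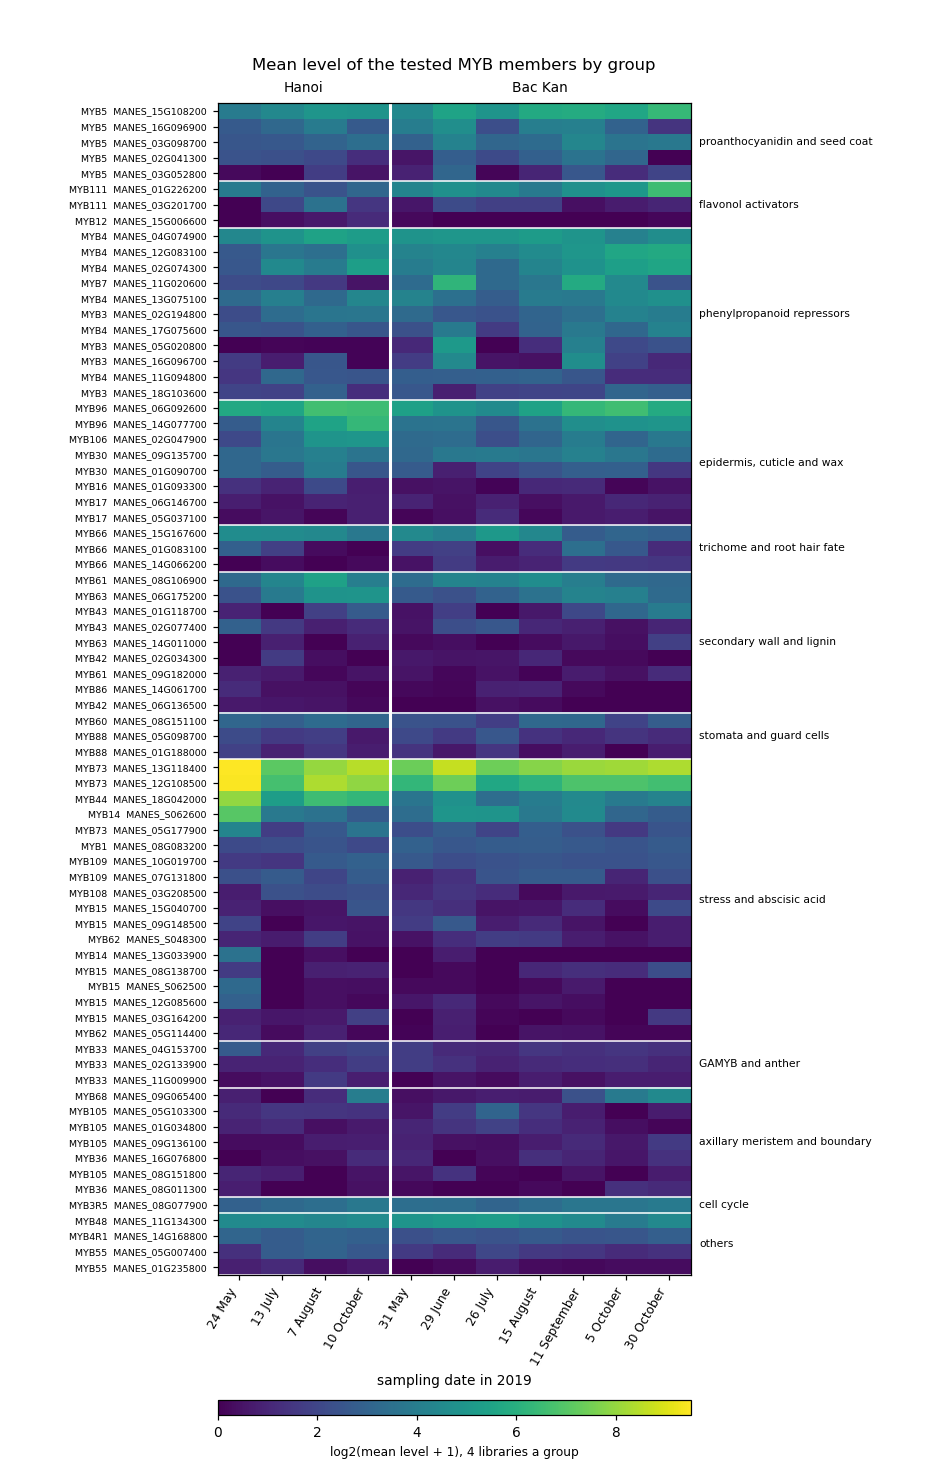
Mean level of each of the 75 tested members (rows, by role group) in the 11 groups (columns, 4 Hanoi dates then 7 Bac Kan dates), as log2(mean level + 1) of 4 libraries. The brightest cells are those of both leading MYB73 genes on 24 May in Hanoi, and the rows of MYB7 MANES_11G020600 and of MYB3 MANES_05G020800 and MANES_16G096700 brighten on 29 June and 11 September in Bac Kan.

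The share of tested members called between sites lay below that of all genes tested in late May and above it in August. In July and October it was near that share, and leaving out each library gave 6 to 9 members in July and 15 to 19 in October. Lower calls outnumbered higher ones in each pair as dated here. In late May 15 of the 75 were called (20% against 28.7% of all genes tested), 6 higher in Bac Kan (8.0% against 16.1%) and 9 lower (12% against 12.6%). In July 8 were called (10.7% against 8.84%), 2 higher (2.67% against 5.17%) and 6 lower (8.0% against 3.66%). In August 18 were called (24.0% against 14.5%), 4 higher (5.33% against 6.4%) and 14 lower (18.7% against 8.11%). In October 20 were called (26.7% against 24.2%), 7 higher (9.33% against 10.5%) and 13 lower (17.3% against 13.6%). Over the mean of the 4 site differences 23 were called (30.7% against 25.2%), of which 5 were higher in Bac Kan (6.67% against 12.5%) and 18 lower (24.0% against 12.7%). Without Bac Kan 15 August library 4 the August count was 10, with 2 higher and 8 lower. With the Bac Kan libraries of 29 June in place of 26 July the July count was 16, with 12 higher and 4 lower. The shares of all genes tested under these alternatives are not given here. The median difference of the tested members in that mean was -0.17, beside 0.0 for all genes tested. At least 1 pair called 39 members, with 25 called in 1 pair, 9 in 2, 2 in 3 and 3 in all 4, and 4 members were called in both directions. Shares of all genes tested for these overlaps are not given here, so the counts describe the members only.

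**Figure D2:**
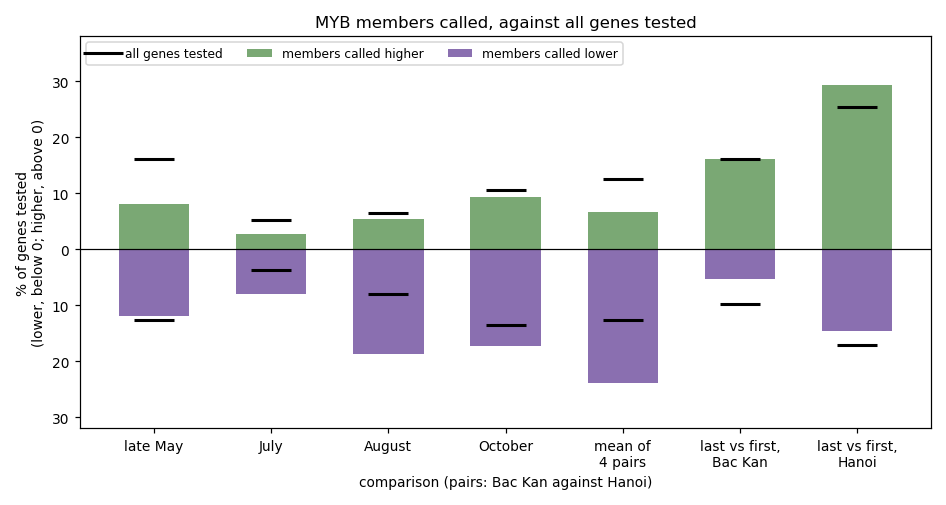
Percent of the 75 tested MYB members called higher (bars above 0) or lower (bars below 0) in each comparison, with black marks for the same percent over all 23405 genes tested. For August and for the mean of the pairs the lower bars, at 18.7% and 24.0%, reach past their marks at 8.11% and 12.7%.

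Members of the stress and abscisic acid groups formed the largest block of tested members, 18 of 28. None was called higher in Bac Kan in any pair, while 6 were lower in late May, 1 in July, 3 in August, 7 in October and 7 over the mean of the pairs. For all genes tested the shares called lower were 12.6%, 3.66%, 8.11%, 13.6% and 12.7%, and the July count of 1 of 18 is near its share. MYB44, known for rapid induction by stress and for a part in stomatal closure under abscisic acid, stood at 120, 339, 250 and 288 in Hanoi on 24 May. In Bac Kan on 31 May MYB44 MANES_18G042000 stood at 14.4, 12.3, 9.45 and 11.9. The lowest Hanoi library lay far above every Bac Kan library, and the difference was -4.18 ± 0.37 (adjusted p = 6.87e-11). The summed stomatal lineage markers were also higher in Hanoi in that pair, and their part in this difference was not tested.

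MYB44 MANES_18G042000 was lower in Bac Kan at every pair. In July its level was 60.2, 31.5, 32.4 and 27.3 in Hanoi against 8.35, 7.29, 11.6 and 11.1 in Bac Kan. The libraries did not overlap, and the difference was -1.83 ± 0.37 (adjusted p = 0.000983), but with the Bac Kan libraries of 29 June in place of 26 July it was -0.57 (adjusted p = 0.357). In August it was -2.33 ± 0.37 (adjusted p = 1.61e-05), from 92.8 ± 66.7 in Hanoi and 14.7 ± 3.63 in Bac Kan. In October it was -2.43 ± 0.37 (adjusted p = 3.98e-06), from 78.2 ± 11.6 and 13.8 ± 3.37. Over the mean of the pairs MYB44 had the smallest p of the members, at -2.69 ± 0.19 (adjusted p = 6.16e-14). The size of the site difference changed between pairs (adjusted p = 0.00242), and within Hanoi the level fell by 1.57 ± 0.37 from 24 May to 10 October (adjusted p = 0.000739). The 7 Bac Kan group means lay between 9.57 and 26.7, and the test over Bac Kan dates did not call it.

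MYB73, a close relative of MYB44 that is linked to salt responses, had 3 tested copies. MANES_12G108500 stood at 434, 860, 624 and 883 in Hanoi on 24 May and at 76.1, 92.6, 54.0 and 88.1 in Bac Kan on 31 May. All Hanoi libraries lay above all Bac Kan libraries, with a difference of -3.13 ± 0.34 (adjusted p = 5.25e-09). It was again lower in Bac Kan in August (-1.93 ± 0.34, adjusted p = 7.18e-05), where 1 Hanoi library at 702 stood apart from the others at 162 to 236 and the highest Bac Kan library was at 81.1. In October it was -1.10 ± 0.34 (adjusted p = 0.0147), and without Bac Kan 5 October library 1 it was -0.97 (adjusted p = 0.055). This copy was, over the mean of the pairs, at -1.79 ± 0.17 (adjusted p = 1.78e-10).

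The copy MANES_13G118400, the highest MYB member, behaved alike in late May and differently later. It stood at 634, 885, 635 and 743 in Hanoi on 24 May and at 185, 143, 137 and 193 in Bac Kan on 31 May, without overlap (-2.13 ± 0.20, adjusted p = 2.69e-10). In the other 3 pairs it was not called, and its site difference changed between pairs with the smallest p of any member (adjusted p = 7.16e-08). From first to last date it fell by 1.03 ± 0.20 in Hanoi (adjusted p = 7.67e-05) and rose by 0.94 ± 0.20 in Bac Kan (adjusted p = 0.000473). The third copy, MANES_05G177900, stood at 17.3, 11.8, 9.00 and 8.66 in Hanoi on 10 October against 0.445, 3.32, 2.06 and 2.01 in Bac Kan on 5 October (-2.15 ± 0.73, adjusted p = 0.0272). Its libraries did not overlap, but the call was lost without Hanoi 10 October library 1 (adjusted p = 0.0778) or library 2 (adjusted p = 0.0522), or without Bac Kan 5 October library 1 (adjusted p = 0.0935).

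**Figure D3:**
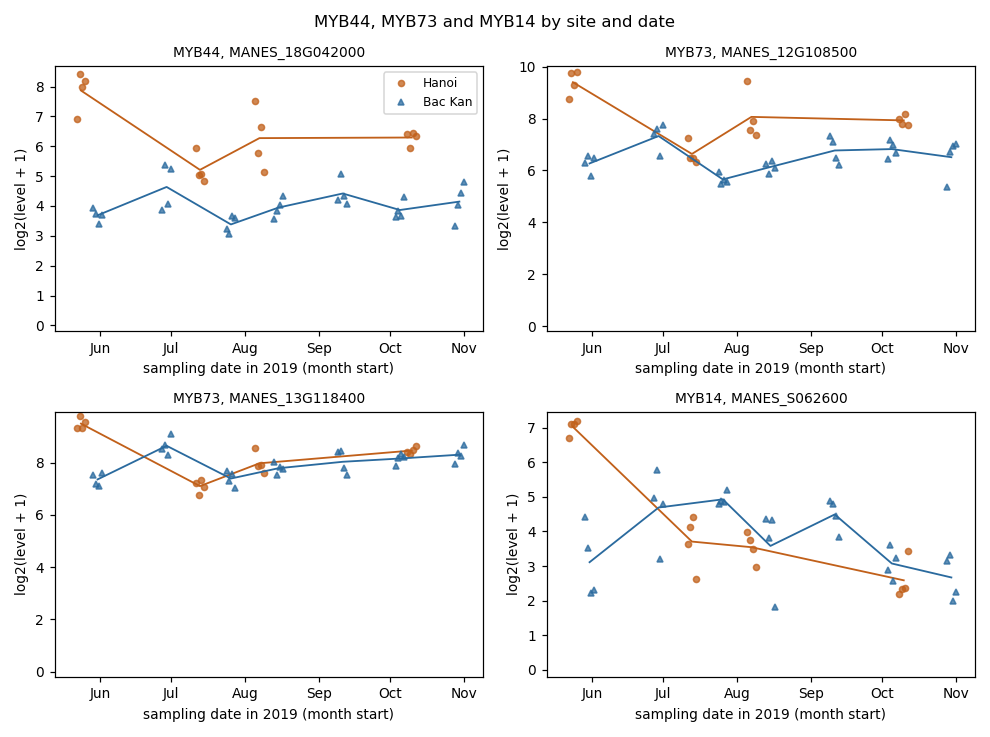
Level of MYB44, of both leading MYB73 copies and of MYB14 MANES_S062600 in each of the 44 libraries, as log2(level + 1) by sampling date. Points are libraries (circles, Hanoi; triangles, Bac Kan) and lines join group means of the plotted values; the 4 Hanoi libraries of 24 May lie above the Bac Kan libraries of 31 May in all 4 panels.

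MYB14 and MYB15 activate stilbene or lignin genes in grapevine and Arabidopsis and act in cold and defence responses. MYB14 MANES_S062600 stood at 102, 137, 136 and 145 in Hanoi on 24 May and at 20.2, 10.5, 3.62 and 3.94 in Bac Kan on 31 May. The groups were far apart (-3.91 ± 0.49, adjusted p = 9.17e-08), and no later pair was called. Its level in Hanoi fell by 4.43 ± 0.49 to 5.41 ± 2.95 on 10 October (adjusted p = 1.78e-09), the largest fall among the members whose libraries were fully apart. The other tested copy, MYB14 MANES_13G033900, stood at 0, 15.8, 14.7 and 12.9 in Hanoi on 24 May, was listed at 0 in all 4 Bac Kan libraries of 31 May, and was at most 1.21 in the other libraries. The late May difference was called (-2.96 ± 0.44, adjusted p = 1.68e-06), although 1 Hanoi library was also at 0. The call was lost when only the groups compared were fitted (adjusted p = 0.0674). Above 0 in only 8 of the 44 libraries, it passed the filter mostly through Hanoi 24 May, the group then tested, so the call is weak support for a difference. This copy was chosen after its values were seen.

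The 6 tested MYB15 copies were low, with group means of at most 8.57. The late May level of MYB15 MANES_S062500 was called lower at the Bac Kan site (-2.23 ± 0.48, adjusted p = 0.000476), from 2.83, 8.25, 0 and 23.2 in Hanoi, where the libraries disagreed, to at most 0.746 in Bac Kan. The October level of MYB15 MANES_15G040700 was lower at the Bac Kan site (-2.15 ± 0.45, adjusted p = 0.000371), at 2.99, 5.56, 2.91 and 7.44 in Hanoi and 0, 0, 0.690 and 0.336 in Bac Kan. MYB15 MANES_03G164200 was also lower in October (-1.77 ± 0.41, adjusted p = 0.00126), with all 4 Bac Kan libraries listed at 0 and the Hanoi libraries between 1.64 and 3.31. Copies of MYB15 were chosen after their values were seen. MYB108, tied to jasmonate and wounding, was lower in Bac Kan in August (MANES_03G208500, -1.85 ± 0.47, adjusted p = 0.00492), at 1.84 to 7.17 in Hanoi and 0 to 0.452 in Bac Kan, and was likewise chosen after its values were seen. MYB109 MANES_07G131800 was called in October at -2.17 ± 0.79 (adjusted p = 0.0401), a call lost when any 1 of 7 of its 8 libraries was left out (adjusted p up to 0.103); only leaving out Bac Kan 5 October library 2, its highest Bac Kan library, kept it. It was also lost with no filter (adjusted p = 0.0509) and with median-ratio scaling (adjusted p = 0.0501).

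Members of the epidermis and cuticle group were called in both directions between sites. Of 14 genes 8 were tested. In late May 2 were higher in Bac Kan and none lower; then 3 were lower in July, 5 in August and 2 in October, with none higher, and 5 were lower over the mean of the pairs. All genes tested were called higher at 16.1% in late May, and lower at 3.66%, 8.11%, 13.6% and 12.7% in the later pairs and the mean. MYB96, which activates cuticular wax genes under drought and abscisic acid, stood for MANES_14G077700 at 38.8, 57.5, 35.7 and 45.0 in Hanoi on 7 August and at 10.9, 8.43, 13.0 and 11.6 in Bac Kan on 15 August. All Hanoi libraries lay above all Bac Kan libraries (-1.91 ± 0.32, adjusted p = 3.62e-05). In October the libraries again did not overlap, at 56.3 to 96.7 in Hanoi and 23.1 to 34.5 in Bac Kan (-1.44 ± 0.32, adjusted p = 0.000804). The July difference was -1.72 ± 0.32 (adjusted p = 0.000365), and -0.71 with 29 June in place of 26 July (adjusted p = 0.145).

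In late May the order of MYB96 MANES_14G077700 was the other way, at 1.55, 10.6, 5.27 and 5.71 in Hanoi and 12, 8.38, 11.7 and 13.6 in Bac Kan. The groups overlapped, and the difference of 1.05 ± 0.32 (adjusted p = 0.0124) was 0.64 without Hanoi 24 May library 1 (adjusted p = 0.116). Its site difference changed between pairs (adjusted p = 3.52e-06). Within Hanoi the level rose by 3.71 ± 0.32 from 24 May to 10 October, with the smallest p of the members in that comparison (adjusted p = 5.76e-12), and within Bac Kan by 1.30 ± 0.32 (adjusted p = 0.00215).

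MYB106, which shapes epidermal cells and promotes cutin, showed a like course in MANES_02G047900. It stood at 26.1, 34.8, 27.6 and 27.1 in Hanoi on 7 August and at 6.49, 7.22, 6.13 and 10.3 in Bac Kan on 15 August, far apart (-1.82 ± 0.41, adjusted p = 0.0013). The October difference was -1.91 ± 0.41 (adjusted p = 0.000438), and that of July was -1.58 ± 0.41 (adjusted p = 0.00928) but missed the threshold without Bac Kan 26 July library 3 (adjusted p = 0.063) and with 29 June in place of 26 July (-0.35, adjusted p = 0.647). Its late May level was higher in Bac Kan, at 7.63 to 9.71 against 0 to 6.55 (1.54 ± 0.41, adjusted p = 0.00346). The level rose by 3.23 ± 0.41 over the Hanoi dates (adjusted p = 2.95e-08), and the site difference changed between pairs (adjusted p = 7.79e-06). Counting only its most abundant transcript ended the calls of late May, July, August and the mean of the pairs.

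The higher MYB96 copy, MANES_06G092600, moved less. It stood at 101, 128, 62.2 and 98.3 in Hanoi on 7 August and at 40.7, 45.3, 45.1 and 42.7 in Bac Kan on 15 August, without overlap (-1.10 ± 0.26, adjusted p = 0.00223). Its July difference was -1.05 ± 0.26 (adjusted p = 0.00607), or -0.71 with 29 June in place of 26 July (adjusted p = 0.0572), and late May and October were not called. Over the Bac Kan dates its group means ran from 22.6 on 26 July to 94.9 on 5 October (adjusted p = 9.25e-08). MYB30 raises very-long-chain fatty acid synthesis in the defence response. In August its copy MANES_01G090700 was lower in Bac Kan (-1.50 ± 0.38, adjusted p = 0.00528), at 20.2, 19.5, 10.7 and 9.10 in Hanoi against 4.05, 4.84, 2.87 and 6.08. The other tested MYB30 copy, MANES_09G135700, had the higher mean over the groups, 12.2 against 5.61. That copy was called in no pair (August -0.3 ± 0.5, adjusted p = 0.779) and was chosen after its values were seen. MYB16, a close relative of MYB106, had group means of at most 3.39 and was lower in Bac Kan over the mean of the pairs (MANES_01G093300, -0.89 ± 0.21, adjusted p = 0.00125). The other MYB106 copies, MANES_08G058000 and MANES_09G007100, were not tested.

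The wax and cutin genes held 51 matched genes, of which 40 were tested. In July none was higher in Bac Kan and 13 were lower, beside 5.17% and 3.66% of all genes tested, with a median difference of -0.52. In August 1 was higher and 20 were lower, where 8.11% of all genes tested were lower, with a median of -0.91 beside -0.06 for all genes tested. In late May 11 were higher and 6 lower, beside 16.1% and 12.6% of all genes tested. In October 7 were higher and 5 lower, beside 10.5% and 13.6%. The lower counts of late May and October are near their shares. In August CER10, a reductase of very-long-chain fatty acid elongation, had the smallest p (MANES_07G115800, 41.7 ± 8.66 in Bac Kan against 136 ± 39.2 in Hanoi, -1.66 ± 0.20, adjusted p = 1.11e-07). The cutin acyltransferase GPAT8 was at 24.0 ± 4.49 and 89.1 ± 27.7 (MANES_01G255900, -1.80 ± 0.24, adjusted p = 6.83e-07). LTPG1, a lipid transfer protein that carries wax to the surface, was at 142 ± 12.3 and 403 ± 124 (MANES_13G011400, -1.44 ± 0.20, adjusted p = 1.28e-06). In October MYB96 MANES_14G077700 and MYB106 MANES_02G047900 were lower in Bac Kan, while MYB96 MANES_06G092600 was not called (0.04 ± 0.26, adjusted p = 0.943). The summed level of the list was higher in Bac Kan in that pair, at 2800 to 4190 against 1680 to 2340. That sum leans on its highest gene, CER6 MANES_14G102100, which ran from 136 to 2760 over all libraries. The median difference of the 40 tested genes in October was 0.13, so the sum does not describe the list as a whole.

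**Figure D4:**
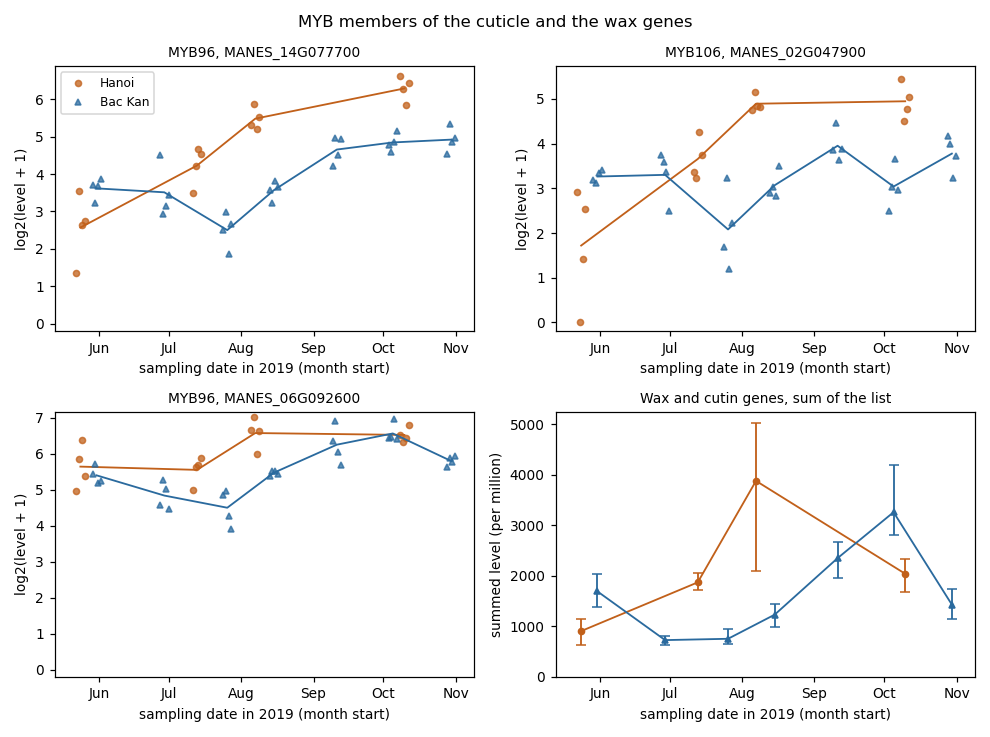
Levels of MYB96 MANES_14G077700, MYB106 MANES_02G047900 and MYB96 MANES_06G092600 in each library, as log2(level + 1) by date, with lines through the group means, and the summed level of the 51 wax and cutin genes (mean, with bars from the lowest to the highest library). In August the Hanoi libraries of the 3 members lie above those of Bac Kan, and the wax sum runs from 2100 to 5030 in Hanoi and from 988 to 1440 in Bac Kan. The highest gene in the sum, CER6 MANES_14G102100, runs from 136 to 2760 over all libraries.

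Flavonol activators numbered 4, of which 3 were tested. MYB111, which switches on the early flavonoid enzymes up to the flavonols, stood for MANES_01G226200 at 10.7, 6.72, 2.46 and 10.9 in Hanoi on 10 October and at 44.1, 25.4, 31.5 and 25.9 in Bac Kan on 5 October. Every Bac Kan library lay above every Hanoi library (2.03 ± 0.44, adjusted p = 0.000495). Over the mean of the pairs it was higher in Bac Kan by 1.38 ± 0.22 (adjusted p = 5.48e-06). It was called in July at 1.64 ± 0.44 (adjusted p = 0.0121), a call lost without Hanoi 13 July library 3 (adjusted p = 0.0507) or Bac Kan 26 July library 2 (adjusted p = 0.0501). It was called in August at 1.51 ± 0.44 (adjusted p = 0.0141), a call lost without Hanoi 7 August library 1 (adjusted p = 0.0872) or Bac Kan 15 August library 1 (adjusted p = 0.062) or library 4 (adjusted p = 0.0634). On 30 October in Bac Kan it reached 94.9, 116, 37.3 and 122, against 31.1, 19.8, 13.3 and 10.5 on 31 May. That was a rise of 2.23 ± 0.44 (adjusted p = 0.000134), and even the lowest late library was above every early one.

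The lower copy, MYB111 MANES_03G201700, went the other way in August, at 8.89, 13.3, 14.6 and 7.62 in Hanoi and 0, 3.90, 6.01 and 0 in Bac Kan. The libraries did not overlap (-2.28 ± 0.63, adjusted p = 0.00994), but the call was lost without Bac Kan 15 August library 1 (adjusted p = 0.0628) or library 4 (adjusted p = 0.0606). MYB12, a flavonol activator of the same kind, never passed 2.71 for MANES_15G006600 and was called in October (-1.02 ± 0.29, adjusted p = 0.00907), a call lost without Hanoi 10 October library 2 (adjusted p = 0.0771). The other MYB12 copy, MANES_02G005200, was not tested. MYB113 MANES_01G117100, the only member named after an anthocyanin activator, was listed at 0 in all 44 libraries.

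The enzymes of the flavonoid and anthocyanin pathway held 33 matched genes, 22 of them tested. In late May 10 were higher in Bac Kan and 1 lower, beside 16.1% and 12.6% of all genes tested. In October 13 were higher and 1 lower, beside 10.5% and 13.6%. In July none was higher and 1 was lower, beside 5.17% and 3.66%, and in August 4 were higher and 2 lower, beside 6.4% and 8.11%. The lower counts of July and August are near their shares. Over the mean of the pairs 14 were higher and 1 lower, beside 12.5% and 12.7% of all genes tested, with a median of 0.97. Chalcone synthase MANES_03G150000 (CHS, the entry enzyme) was higher by 2.67 ± 0.22 (adjusted p = 8.34e-12). Flavanone hydroxylase MANES_02G104700 (F3H) was higher by 2.23 ± 0.19 (adjusted p = 1.56e-11), and dihydroflavonol reductase MANES_18G022300 (DFR) by 2.53 ± 0.23 (adjusted p = 4.01e-11). The summed level of the list was 1270 to 2360 on 29 June and 1190 to 2240 on 11 September in Bac Kan, against 325 to 1030 on the other 5 Bac Kan dates and 244 to 525 in Hanoi.

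**Figure D5:**
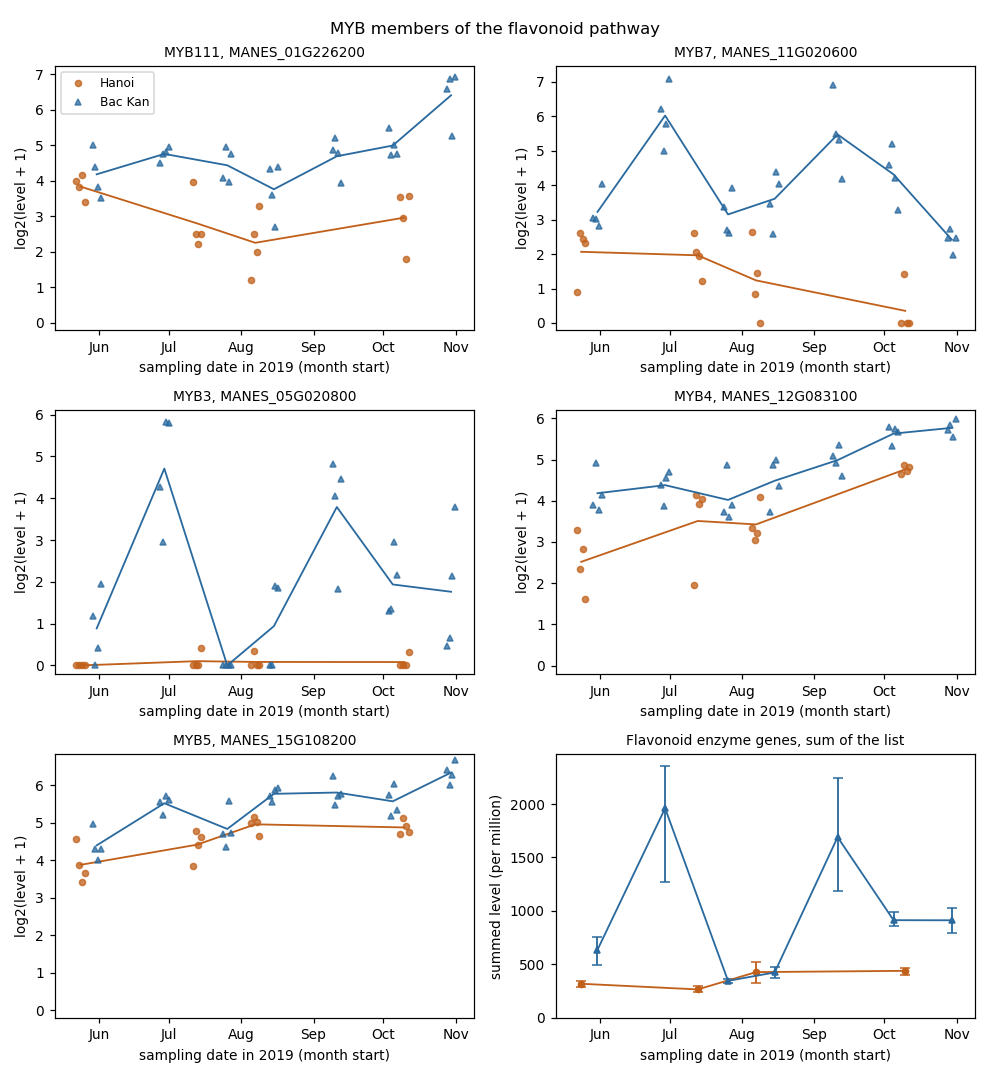
Levels of MYB111, MYB7, MYB3, MYB4 and MYB5 members in each library, as log2(level + 1) by date with lines through the group means, and the summed level of 33 flavonoid enzyme genes (mean, with bars from the lowest to the highest library). MYB7 and MYB3 stand highest in Bac Kan on 29 June and 11 September, as does the enzyme sum, whereas MYB111 stands highest on 30 October.

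Repressors of the phenylpropanoid pathway numbered 13, of which 11 were tested, and the test over Bac Kan dates called all 11, against 44.8% of all genes tested. MYB7, which holds back flavonol genes, stood for MANES_11G020600 at 23.1, 35.5, 17.4 and 8.70 in Bac Kan on 5 October and at 0, 1.66, 0 and 0 in Hanoi on 10 October. The libraries were fully apart (3.96 ± 0.53, adjusted p = 3.44e-07). Its August level was also higher at Bac Kan (2.37 ± 0.53, adjusted p = 0.00143), with libraries that overlapped, and over the mean of the pairs (2.17 ± 0.27, adjusted p = 4.64e-08). On 29 June it reached 73.3, 31.1, 53.8 and 136, and on 11 September 120, 43.6, 38.8 and 17.2. Between these dates, on 26 July, it was at 5.16 to 14.0, below all 8 of those libraries, and on 30 October it was at 2.95 to 5.67 (adjusted p over Bac Kan dates 1.92e-06).

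MYB3, a repressor of the lignin branch and of anthocyanin genes, had 4 tested copies. MANES_05G020800 stood at 18.2, 6.79, 55.2 and 54.5 on 29 June and at 27.3, 15.5, 2.56 and 21.0 on 11 September in Bac Kan. On 26 July it was listed at 0 in all 4 libraries, and no Hanoi library passed 0.329 (adjusted p over Bac Kan dates 1.57e-07). Its October difference of 1.86 ± 0.61 (adjusted p = 0.0215) was lost without Bac Kan 5 October library 3 (adjusted p = 0.0939). MYB3 MANES_16G096700 was also highest on those dates, but its libraries disagreed, at 25.7, 6.28, 1.44 and 50.7 on 29 June and at 64.5, 26.0, 0.428 and 5.26 on 11 September (adjusted p over Bac Kan dates 0.00203). MYB3 MANES_18G103600 and MANES_02G194800 did not share that course, with Bac Kan group means of 0.788 and 4.97 on 29 June and 7.67 and 17.4 on 5 October. MYB3 copies other than MANES_05G020800 were chosen after their values were seen.

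MYB4, which represses a hydroxylase gene at the entry of the pathway and so sunscreen esters, had 6 tested copies, and they did not move together. MANES_12G083100 was higher at Bac Kan in late May, at 13.9, 29.1, 12.7 and 16.7 against 8.71, 4.10, 6.10 and 2.06 (1.66 ± 0.36, adjusted p = 0.000449), without overlap, and over the mean of the pairs (1.02 ± 0.18, adjusted p = 2.82e-05). It rose by 2.24 ± 0.36 over the Hanoi dates (adjusted p = 2.94e-06) and by 1.59 ± 0.36 over the Bac Kan dates (adjusted p = 0.000816). MANES_02G074300 likewise stood higher at the Bac Kan site in late May (1.52 ± 0.35, adjusted p = 0.000829), at 13.7 to 16.3 against 2.37 to 7.43. In July it was lower there, at 9.48, 5.29, 6.39 and 13.1 against 25.0, 24.5, 19.3 and 17.6 (-1.30 ± 0.35, adjusted p = 0.0121), a call lost without Bac Kan 26 July library 2 (adjusted p = 0.0585) and with 29 June in its place (-0.24, adjusted p = 0.725). Its site difference changed between pairs (adjusted p = 0.000188), and it rose by 2.86 ± 0.35 in Hanoi (adjusted p = 1.24e-08) and by 1.58 ± 0.35 in Bac Kan (adjusted p = 0.000549).

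Among the other MYB4 copies, MANES_17G075600 was not called in any pair and rose by 1.83 ± 0.41 within Bac Kan (adjusted p = 0.000811), from 3.20 to 4.95 on 31 May to 11.7 to 22.1 on 30 October. MANES_04G074900, the highest copy, was lower in Bac Kan in October, at 19.0, 6.75, 23.9 and 19.3 against 38.2, 31.3, 36.2 and 41.0 (-1.16 ± 0.30, adjusted p = 0.00363). MANES_13G075100 differed between pairs (adjusted p = 0.00138), at 1.27 ± 0.38 in late May and -1.29 ± 0.38 in July. Both pairs were called (adjusted p = 0.0107 and 0.028), and both calls were lost without single libraries: that of late May without Hanoi 24 May library 2 (adjusted p = 0.0802), and that of July without Hanoi 13 July library 1 (adjusted p = 0.0579) or 2 (adjusted p = 0.0976) or Bac Kan 26 July library 1 (adjusted p = 0.0761) or 4 (adjusted p = 0.0827). MANES_11G094800 was low, with group means from 1.28 to 8.14, and was called in no pair. MYB4 MANES_01G115400 and MANES_01G147500 were not tested.

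Partners of these MYB proteins, the basic helix-loop-helix and WD40 proteins they bind and the small single-repeat MYB proteins that compete with them, held 16 matched genes, 14 of them tested. Averaged over the pairs, 4 were higher in Bac Kan and none lower, beside 12.5% and 12.7% of all genes tested. GL3, a helix-loop-helix partner in hair cell and anthocyanin control, was higher by 0.94 ± 0.17 (MANES_02G019400, adjusted p = 6.4e-05). CPC, a competing single-repeat MYB, was higher by 0.44 ± 0.10 (MANES_13G072300, adjusted p = 0.00102), and TT8, the partner of seed coat MYB proteins, by 0.50 ± 0.14 (MANES_01G208400, adjusted p = 0.0054).

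Members named after MYB5, which acts in the seed coat and in proanthocyanidin synthesis, numbered 7, of which 5 were tested. MYB5 MANES_15G108200 stood at 83.1, 63.2, 76.1 and 100 in Bac Kan on 30 October, against 30.4, 18.8, 14.9 and 18.7 on 31 May, a rise of 1.94 ± 0.24 without overlap (adjusted p = 6.83e-08). Within Hanoi it rose by 1.0 ± 0.24 (adjusted p = 0.000961), from 14.3 ± 5.70 to 28.4 ± 3.93. Over the mean of the pairs it was higher in Bac Kan by 0.61 ± 0.12 (adjusted p = 0.000159). In August its libraries were fully apart, at 46.0 to 59.1 against 24.0 to 34.4 (0.81 ± 0.24, adjusted p = 0.0177), but the call was lost without Hanoi 7 August library 4 (adjusted p = 0.0695) or Bac Kan 15 August library 4 (adjusted p = 0.0509).

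MYB5 MANES_16G096900 took the opposite course in Bac Kan. It stood at 17.6, 11.2, 17.0 and 15.3 on 31 May and at 0.462, 1.38, 4.18 and 0.620 on 30 October, a fall by 2.79 ± 0.60 without overlap (adjusted p = 0.000486). MYB5 MANES_02G041300 was listed at 0 in all 4 libraries of 30 October after 11.2 ± 3.58 on 11 September, and was called over the Bac Kan dates (adjusted p = 5.78e-05). MYB5 MANES_03G052800 was called there too (adjusted p = 0.0003), with its highest means, 7.86 ± 8.78 and 5.03 ± 2.41, on 29 June and 11 September. MYB5 MANES_03G098700 had its highest means on the same dates, 17.6 ± 6.72 and 19.5 ± 6.44, but was not called over the Bac Kan dates. MYB5 MANES_08G145500 and MANES_09G139900 were not tested.

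The secondary wall and lignin group was the largest by name, with 31 members, but only 9 were tested. The master switch MYB83 had 4 copies, none of them tested, and no member was named MYB46. MYB61, which acts in xylem and in stomatal aperture, was the highest of the group, and MANES_08G106900 stood at 32.7, 38.1, 43.3 and 53.1 in Hanoi on 7 August. In Bac Kan it stood at 29.4, 18.5, 25.6 and 21.8 on 15 August, below every Hanoi library (-0.78 ± 0.25, adjusted p = 0.0282). The xylem marker sum was also higher in Hanoi in August without overlap. Of the 22 tested genes of that list, 1 was called lower in Bac Kan in August and none higher, beside 8.11% and 6.4% of all genes tested. The part of that sum in the MYB61 difference was not tested. The August call of MYB61 was lost without Hanoi 7 August library 3 (adjusted p = 0.0687) or 4 (adjusted p = 0.108) or Bac Kan 15 August library 2 (adjusted p = 0.0956) or 4 (adjusted p = 0.067). In October it was at 14.5 to 17.2 in Hanoi and 7.24 to 9.88 in Bac Kan (-0.81 ± 0.25, adjusted p = 0.0149), a call lost without Bac Kan 5 October library 2 (adjusted p = 0.0502). Its level changed over the dates at both sites (adjusted p = 5.25e-08 in Hanoi and 9.05e-06 in Bac Kan), with the highest mean in August at each.

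MYB63, an activator of lignin genes, rose in Hanoi for MANES_06G175200 by 2.83 ± 0.46 (adjusted p = 4.28e-06), from 0 to 6.77 on 24 May to 20.2 to 36.0 on 10 October. MYB43 MANES_02G077400 was lower in Bac Kan in late May, at 0, 0.243, 0 and 1.46 against 3.42, 5.37, 9.27 and 8.69 (-2.46 ± 0.44, adjusted p = 3.75e-05). The xylem marker sum was higher in Hanoi in that pair as well, and its part in this difference was not tested. Of the 22 tested genes of that list, 1 was called higher in Bac Kan in late May and 4 lower, beside 16.1% and 12.6% of all genes tested. MYB43 MANES_01G118700 rose at both sites, by 3.45 ± 0.42 in Bac Kan (adjusted p = 3.31e-08) and, over the Hanoi dates, by 1.90 ± 0.42 (adjusted p = 0.000303). It stood at 9.72, 10.2, 22.8 and 14.5 in Bac Kan on 30 October and at 0 to 1.03 on 31 May, and it had the smallest p of the members over the Bac Kan dates (adjusted p = 7.64e-10). MYB61 and MYB63 were chosen after their values were seen.

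Of the 33 tested lignin and general phenylpropanoid enzymes, 5 were higher and 10 lower in Bac Kan over the mean of the pairs, beside 12.5% and 12.7% of all genes tested. PAL1, the first enzyme of the pathway, was higher by 1.24 ± 0.13 (MANES_04G018000, adjusted p = 1.81e-09), and COMT1, a methyltransferase of lignin building blocks, was lower at -1.83 ± 0.28 (MANES_08G155200, adjusted p = 2.95e-06). Of the 22 tested secondary wall and xylem genes, 1 was higher and 3 were lower, where all genes tested were called at 12.5% and 12.7%, and the lower count is near that share. FRA8, which acts in xylan synthesis, had the smallest p among them at -0.65 ± 0.16 (MANES_04G013800, adjusted p = 0.00219).

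MYB68, which acts in roots and in secondary tissue, was the member that rose most at Bac Kan. MANES_09G065400 stood at 1.21, 0, 0 and 0 on 31 May and at 15.8, 21.9, 33.8 and 15.4 on 30 October (4.15 ± 0.50, adjusted p = 3.77e-08). In Hanoi it stood at 3.05, 0, 0 and 0 on 24 May and at 10.4, 18.6, 14.8 and 16.7 on 10 October (3.48 ± 0.50, adjusted p = 4.92e-07). Late libraries lay above early ones at both sites, no pair called a site difference, and the October levels were 13.6 ± 1.93 in Bac Kan and 15.1 ± 3.50 in Hanoi. The rest of the axillary meristem and boundary group, which held 16 members and 7 tested, had group means of at most 7.33. MYB66, which sets hairless root cells apart, had 3 tested copies. MANES_01G083100 was listed at 0 in all 4 Hanoi libraries of 10 October and stood at 0.804, 10.6, 4.41 and 4.85 in Bac Kan on 5 October (2.34 ± 0.67, adjusted p = 0.00834), and it fell by 2.67 ± 0.67 over the Hanoi dates (adjusted p = 0.00138). MANES_15G167600 fell by 1.67 ± 0.53 over the Bac Kan dates (adjusted p = 0.0164), from 17.1 to 23.5 down to 2.65 to 9.16, a call lost without Bac Kan 30 October library 3 (adjusted p = 0.0795).

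Among the members tied to stomata, MYB60, which promotes stomatal opening in guard cells, was lower in Bac Kan over the mean of the pairs (MANES_08G151100, -0.74 ± 0.20, adjusted p = 0.00483) with no call in any single pair and group means of 2.42 to 8.92. Both MYB88 copies, which end the divisions of the stomatal lineage, were called in no pair. Members of the gibberellin and anther group were low: the 3 tested MYB33 copies had group means of at most 5.64. In late May MYB33 MANES_04G153700 averaged 2.32 at Bac Kan and 5.64 at Hanoi (-1.0 ± 0.31, adjusted p = 0.0136). In August MYB33 MANES_11G009900 averaged 0.689 and 2.03 (-0.85 ± 0.29, adjusted p = 0.0463). Both differences were called with overlapping libraries, and their hold under the alternatives is not given here. Over the mean of the pairs MANES_04G153700 was called too (-0.49 ± 0.16, adjusted p = 0.017). MYB33 MANES_02G133900 was called in no pair. MYB33 MANES_15G070500 and MYB101 MANES_S051400 were not tested. MYB21 MANES_17G113200 and MYB24 MANES_15G149600, which act in stamens and petals, were listed at 0 in all 44 libraries, and the 4 members named after glucosinolate regulators were not tested. MYB3R5, with an added repeat and a part in holding back cell cycle genes, was at 2.58 to 18.5 for MANES_08G077900. It was called in no pair and rose by 0.97 ± 0.31 in Hanoi (adjusted p = 0.0114), a call lost without Hanoi 24 May library 1 (adjusted p = 0.0989). None of the 8 tested genes of dividing cells was called in a pair.

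The site difference changed between pairs for 24 of the 75 (32.0% against 38.1% of all genes tested). The level changed over the Bac Kan dates for 40 (53.3% against 44.8%) and over the Hanoi dates for 39 (52.0% against 50.4%), with 25 called at both sites and 21 at neither. From 31 May to 30 October, 152 days, 16 were called in Bac Kan (21.3% against 25.9%), 12 of them higher on the last date (16.0% against 16.1%) and 4 lower (5.33% against 9.8%). From 24 May to 10 October, 139 days, 33 were called in Hanoi (44% against 42.5%), 22 higher (29.3% against 25.3%) and 11 lower (14.7% against 17.2%). The median change of the members was 0.24 in Bac Kan and 0.08 in Hanoi, beside 0.1 and 0.13 for all genes tested; median-ratio scaling moved the medians of all genes by about 0.1, to -0.01 and 0.02, and those of the members to 0.17 and -0.01. Of the 18 tested stress and abscisic acid members 4 rose and 7 fell in Hanoi, and 3 rose and none fell in Bac Kan. Of the 75 tested members 16 were called in no comparison. For all genes tested, the shares called at both sites, at neither or in no comparison are not given here, so these counts describe the members only.

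Fitting only the groups compared, each comparison on its own, ended a further set of the calls given above. In late May these were MYB106 MANES_02G047900 (adjusted p = 0.143), MYB96 MANES_14G077700 (adjusted p = 0.171), MYB14 MANES_13G033900 (adjusted p = 0.0674), MYB4 MANES_13G075100 (adjusted p = 0.171) and MYB15 MANES_S062500 (adjusted p = 0.145). In July these were MYB111 MANES_01G226200 (adjusted p = 0.0804), MYB106 MANES_02G047900 (adjusted p = 0.11) and MYB96 MANES_06G092600 (adjusted p = 0.0933), and with 29 June in place of 26 July the July call of MYB4 MANES_13G075100 was lost too (-0.61, adjusted p = 0.329). In August these were MYB111 MANES_01G226200 (adjusted p = 0.128), MYB111 MANES_03G201700 (adjusted p = 0.0838) and MYB7 MANES_11G020600 (adjusted p = 0.0513). MYB12 MANES_15G006600 in October (adjusted p = 0.0725) and the rise of MYB3R5 MANES_08G077900 in Hanoi (adjusted p = 0.0658) were lost as well. A pseudocount of 0.1 in place of 1 ended the calls of MYB73 MANES_05G177900 in October (adjusted p = 0.104), MYB111 MANES_03G201700 in August (adjusted p = 0.0551), MYB106 MANES_02G047900 in July (adjusted p = 0.0702) and over the mean of the pairs (adjusted p = 0.059), and MYB66 MANES_15G167600 over the Bac Kan dates (adjusted p = 0.106). A pseudocount of 5 ended those of MYB3 MANES_05G020800 (adjusted p = 0.191) and MYB109 MANES_07G131800 (adjusted p = 0.0771) in October, and counting only the most abundant transcript ended the fall of MYB66 MANES_01G083100 in Hanoi (adjusted p = 0.119).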

How the data were processed

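Leaf RNA of 44 libraries in 11 groups of 4 was sequenced by the authors. Per the labels' protocols, RNA from leaf kept in RNA later was reverse transcribed with Superscript IV, ligated to adaptors and amplified by PCR. Alignment used TopHat2, per the submitters' processing notes. The quantifier, genome build, annotation and use of strand are not given in the sources used here. The authors deposited FPKM values per transcript for 41491 transcripts in 11 tables, 1 per group, and 1 further column, a copy of another in all 41491 transcripts, was not used. FPKM holds no read counts, so no count test was run.

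Transcripts were summed per gene, and each library was rescaled to 1000000, from deposited FPKM totals of 664145 to 804362. Genes at 1 or more in at least 4 libraries were kept, log2(level + 1) was fitted with limma 3.58.1 in R 4.3.3 with 1 mean per group and an intensity trend in the prior variance (33 residual degrees of freedom), and 10 contrasts were adjusted by Benjamini-Hochberg over all genes tested. The procedure was tested on simulated data. The members, role groups and gene lists were chosen with earlier results of these data known. Genes named with values were, per comparison with a direction, the 3 largest rises and 3 largest falls among called members with non-overlapping libraries and a mean of at least 5 in the higher group, the 4 smallest p of each test over dates or pairs, the 5 highest members, and the copies of a fixed set of well-known members. Members named outside that rule are marked as chosen after their values were seen. The lists were matched by the Arabidopsis locus given as best match in the deposited annotation. None of the 34312 RefSeq entries shared an ID with the deposited genes. Alternatives were pseudocounts of 0.1 and 5, no filter, a filter at 5, unscaled FPKM, median-ratio scaling, the most abundant transcript only, only the groups compared, another July partner, and leaving out each library.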

Additional observations from a re-analysis of the deposited data

Results flagged for a closer look

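Within 340 groups of 4 libraries checked, 24 held 1 library far from the other 3, by a test whose chance rate is about 1 in 20 groups. In Hanoi on 13 July the high values were 60.2 for MYB44 MANES_18G042000, 152 for MYB73 MANES_12G108500, 14.8 for MYB111 MANES_01G226200, 13.2 for MYB5 MANES_02G041300, 8.93 for MYB66 MANES_01G083100 and 6.46 for MYB105 MANES_05G103300, and the low value was 2.72 for MYB30 MANES_01G090700. On other Hanoi dates single libraries were high at 13.8 for MYB109 MANES_07G131800 and 10.5 for MYB5 MANES_16G096900 on 24 May, at 702 for MYB73 MANES_12G108500 on 7 August and at 9.83 for MYB14 MANES_S062600 on 10 October. In Bac Kan they were high on 31 May at 7.01 for MYB66 MANES_01G083100, 15.5 for MYB7 MANES_11G020600 and 8.56 for MYB3 MANES_16G096700. They were high on 26 July at 28.3 for MYB4 MANES_12G083100 and 35.9 for MYB14 MANES_S062600, on 11 September at 11.7 for MYB68 MANES_09G065400 and on 5 October at 123 for MYB96 MANES_06G092600, 25.5 for MYB3 MANES_02G194800 and 17.3 for MYB3 MANES_18G103600. On 30 October 1 was high at 16.7 for MYB5 MANES_03G098700. Single Bac Kan libraries were low at 20.3 for MYB4 MANES_04G074900 on 29 June, 0.487 for MYB5 MANES_16G096900 on 26 July and 6.71 for MYB3R5 MANES_08G077900 on 15 August.

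The site difference changed between the pairs, by limma's F test with Benjamini-Hochberg adjustment, for 24 of the 75 tested members, some of them chosen after their values were seen. The smallest adjusted p were those of MYB73 MANES_13G118400 (7.16e-08), MYB14 MANES_S062600 (6.46e-07), MYB96 MANES_14G077700 (3.52e-06), MYB106 MANES_02G047900 (7.79e-06) and MYB43 MANES_02G077400 (8.11e-05). They were followed by MYB4 MANES_02G074300 (0.000188), MYB14 MANES_13G033900 (0.000236), MYB73 MANES_12G108500 (0.00131), MYB4 MANES_13G075100 (0.00138), MYB105 MANES_05G103300 (0.00211), MYB44 MANES_18G042000 (0.00242) and MYB15 MANES_15G040700 (0.00289). The others were MYB66 MANES_01G083100 (0.00659), MYB7 MANES_11G020600 (0.00692), MYB4 MANES_04G074900 (0.0141), MYB55 MANES_05G007400 (0.0157), MYB96 MANES_06G092600 (0.0179), MYB3 MANES_18G103600 (0.0196), MYB3 MANES_02G194800 (0.0204), MYB15 MANES_S062500 (0.0221), MYB5 MANES_02G041300 (0.0241), MYB111 MANES_03G201700 (0.0396), MYB30 MANES_01G090700 (0.0407) and MYB4 MANES_11G094800 (0.0484).

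Several of these calls were lost without a single library. That of MYB4 MANES_04G074900 was lost without Bac Kan 5 October library 2 (adjusted p = 0.0569), that of MYB55 MANES_05G007400 without Hanoi 24 May library 1 (0.0557), and that of MYB3 MANES_18G103600 without Bac Kan 5 October library 4 (0.0561). MYB3 MANES_02G194800 lost it without Hanoi 24 May library 1 (0.0687) or 2 (0.0702) or Bac Kan 31 May library 3 (0.0526), and MYB15 MANES_S062500 without Hanoi 24 May library 2 (0.0734) or 4 (0.117). MYB5 MANES_02G041300 lost it without Hanoi 24 May library 1 (0.0689) or 4 (0.0582), Bac Kan 31 May library 2 (0.0544) or Bac Kan 5 October library 2 (0.0515). For MYB30 MANES_01G090700 the libraries were Hanoi 7 August 1 and 2, Hanoi 10 October 1 and 4, Bac Kan 15 August 1 and 3, and Bac Kan 5 October 1, 2 and 4 (0.052 to 0.0985). For MYB111 MANES_03G201700 they were Hanoi 24 May 2 and 4, Hanoi 13 July 1 and 2, Hanoi 7 August 2 and 3, Bac Kan 31 May 2, 3 and 4, Bac Kan 26 July 2, and Bac Kan 15 August 1 and 4 (0.0501 to 0.114). For MYB4 MANES_11G094800 they were Hanoi 24 May 2 and 4, Hanoi 13 July 1, 2 and 4, Hanoi 7 August 2 and 3, Hanoi 10 October 1, 3 and 4, Bac Kan 31 May 1, 3 and 4, Bac Kan 15 August 3, and Bac Kan 5 October 1 and 3 (0.0502 to 0.115).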

How the results depend on the processing

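No paired analysis was possible because the columns carry no replicate numbers. Fitting only the groups compared gave 9 members called in late May (4 higher, 5 lower) and 10 in August (1 higher, 9 lower). With Bac Kan 29 June in place of 26 July, 16 were called in July (12 higher and 4 lower, against 2 and 6), and leaving out Bac Kan 15 August library 4 gave 10 in August; the causes were not tested. Leaving out each library in turn gave 14 to 18 members called in late May, 6 to 9 in July, 10 to 15 in August, 15 to 19 in October, 20 to 25 over the mean of the pairs, 20 to 27 for the change of the site difference, 34 to 40 and 35 to 40 over the Bac Kan and Hanoi dates, and 13 to 17 and 30 to 34 between last and first dates there. For these counts under the alternatives, the matching shares of all genes tested are not given here. No called difference of a member recomputed here changed sign under any alternative run. Median-ratio scaling turned the median change of the tested members in Hanoi from 0.08 to -0.01 and that of all genes in Bac Kan from 0.1 to -0.01. Of 120 member calls recomputed, 79 kept their side of the threshold throughout, 29 were lost without at least 1 library and 33 under another setting. FPKM holds no depth, so counting error is unknown, and members near the filter, close copies and the October pair, whose relative depths did not overlap, are the least certain.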
